A study of Homo sapiens with 3 samples.

Results

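Voltage-gated channels open when the voltage across a cell membrane changes and let potassium, sodium or calcium ions through, which shapes how excitable a cell is. The genes described here are the potassium, sodium and calcium channel subunits of Kelly cells, taken as every gene row whose name begins with KCN and a letter, SCN and a digit, or CACNA, CACNB or CACNG, without names that carry a hyphen. This gave 137 of 32738 gene rows. Of these, 50 were measured, meaning that they reached a level of 2 CPM (counts of unique RNA molecules, UMIs, scaled to 1000000 per library) in the called cells of at least 1 library, and 11956 genes in all were measured by the same limit. The name rule is wider than voltage gating, because inward rectifiers (KCNJ) and tandem-pore leak channels (KCNK) pass potassium without a voltage sensor. It also takes in KCNQ1OT1, a non-coding RNA read from within the KCNQ1 locus.

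Kelly is an established human neuroblastoma cell line with amplified MYCN and an activating mutation of the receptor kinase ALK, and all 3 groups come from this line. Sensitive cells grew with DMSO, the drug solvent, intermediate resistant cells with 500 nM of the ALK inhibitor TAE684 and fully resistant cells with 1 µM of it. Single-cell RNA was counted with 10x Genomics 3′ chemistry in 1 library per state, so no difference below has a replicate check. Resistance, the drug present in the medium and differences between cultures cannot be told apart.

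Potassium channels bring the membrane back to rest, sodium channels start fast spikes and calcium channels couple depolarisation to secretion and gene activity. Each is built around a pore-forming alpha subunit, and auxiliary subunits set how many channels reach the surface and how quickly they open and close. Neuroblastoma cells derive from the sympathetic lineage, whose mature cells are electrically excitable, and hERG, the channel encoded by KCNH2, is well known in neuroblastoma lines.

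Called cells numbered 5415 (sensitive), 6288 (intermediate resistant) and 6331 (fully resistant), with 95119772, 102449567 and 106163582 UMIs in that order. The median cell had from 15660.5 to 16014 UMIs, and 1 UMI was worth about 0.01 CPM (0.00942 to 0.0105). Between 38 and 62 cell barcodes were shared by each pair of libraries, where 46.2 to 54.0 would follow from the numbers of cells, and 0 were shared by all 3. At least 8 of 9 noradrenergic neuroblastoma markers reached 2 CPM in every library, the exception being ALK at 1.25 CPM in the fully resistant one. Summed blood, endothelial and epithelial markers stayed at or below 1.49 CPM. The 6 fibroblast markers summed to 14.8 to 19.8 CPM, with 2 of 6 at 2 CPM or more in each library and COL1A2 at 0 UMIs in 2 of them. The 5 Schwann cell markers summed to 43.5, 13.5 and 86.4 CPM in sensitive, intermediate and fully resistant cells, of which 1 to 2 reached 2 CPM, and SOX10 had 0, 0 and 2 UMIs. The part of these markers in the results was not tested.

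Channel RNA was lower in the fully resistant than in the sensitive cells more often than it was higher. Of the 50 measured channel genes, 16 had a level lower by 2-fold or more in fully resistant cells and 6 a level higher by as much, where the higher library had to reach 2 CPM. Over all measured genes the same limits were passed by 8.57% in the lower and 7.91% in the higher direction, against 32.0% and 12.0% of the channel genes. The 22 genes were led by the calcium channel subunit CACNA2D3, the potassium channel genes KCNJ12, KCNJ6, KCNMA1, KCNK3 and KCNH2 on the lower side, and KCNK9 and KCNS3 on the higher side. The median log2 ratio was -0.48 for the channel genes and 0.07 for all measured genes. Low genes passed the limits more often than abundant ones, so the shares were also taken for genes whose highest CPM was from 2 to under 20. There, 13 of 43 channel genes (30.2%) were lower against 10.9% of all such genes, and 6 (14.0%) were higher against 9.95%. The other comparisons gave, in the same range, 9 lower (20.9%, against 7.29%) and 4 higher (9.30%, against 4.38%) for intermediate over sensitive. For fully over intermediate resistant they gave 11 lower (25.6%, against 6.21%) and 3 higher (6.98%, against 8.25%).

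Intermediate resistant cells differed from sensitive cells at fewer channel genes. At least 2-fold lower were 11 of 50 (22.0%, against 5.60% of all measured genes) and at least 2-fold higher were 4 of 50 (against 3.30%). The median log2 ratio of -0.02 was close to that of all measured genes, -0.07. Between the resistant libraries, 15 of 50 genes were lower in the fully resistant one (30.0%, against 4.88%) and 3 were higher (6.00%, against 6.52%), so that the higher share was near that of all genes. Here the medians were -0.20 for channel genes and 0.14 for all measured genes. With TMM, median-of-ratios or mitochondria- and ribosome-free scaling the median of all genes in this last comparison was -0.01, 0.02 and 0.02, and every ratio of the comparison shifts with it. The 2-fold call was lost in at least 1 other choice of cells or scaling for 4 calls, among them those of KCNMB4 and SCN3A (intermediate over sensitive) and KCNMB3 (fully over intermediate resistant). With 1 library per group these are counts by size, not by a test.

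**Figure D1:**
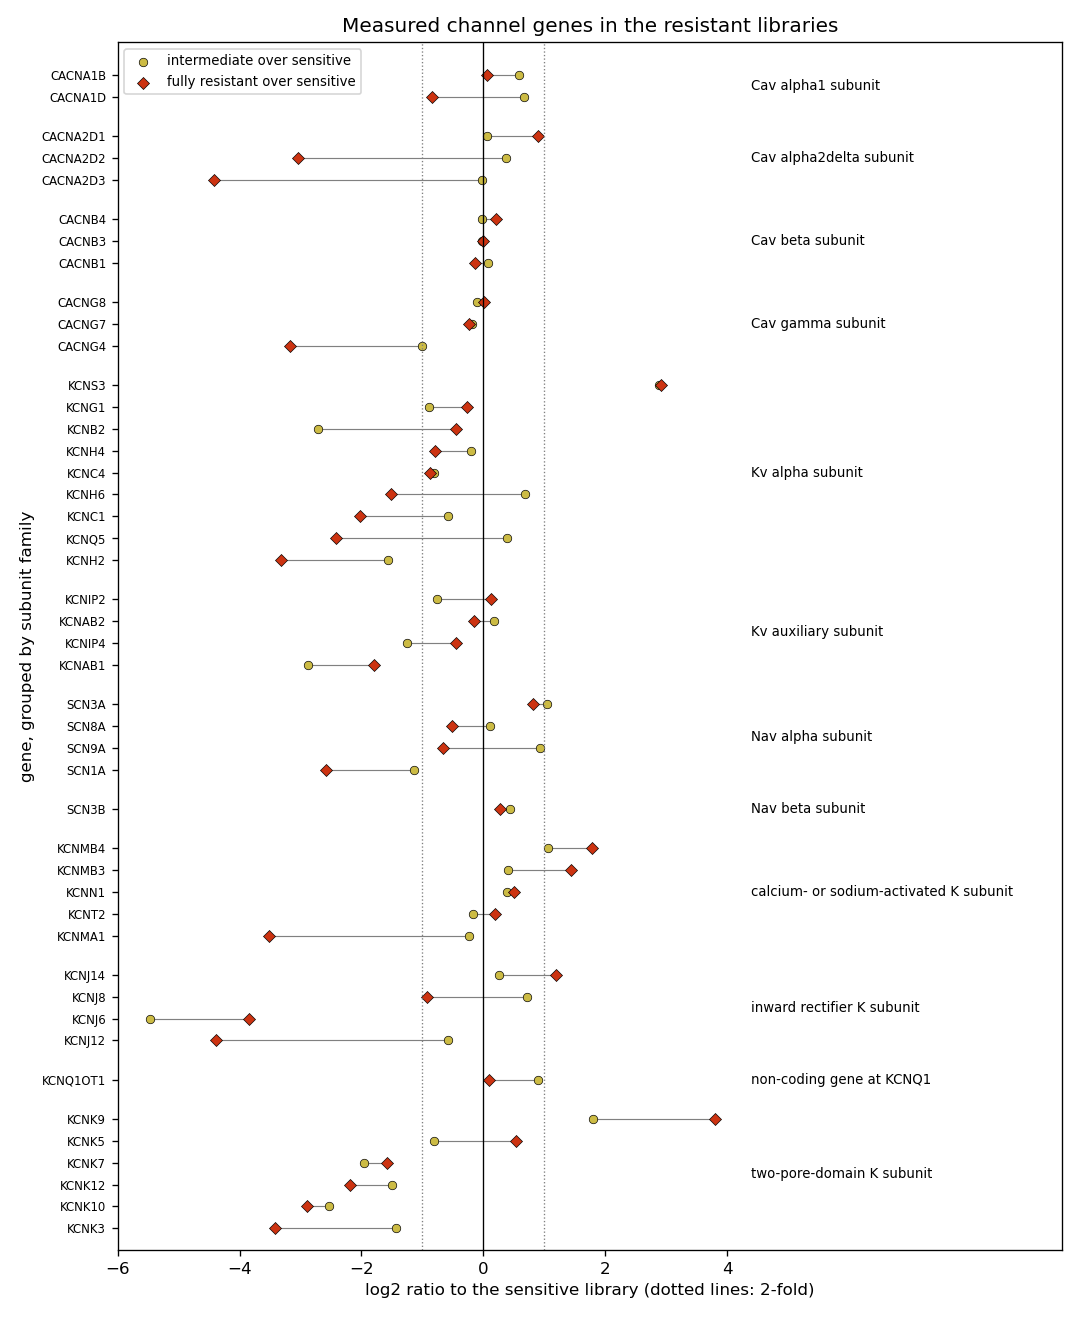
Log2 ratios to the sensitive library (x axis) for 45 measured channel genes, 1 row per gene, grouped by subunit family. Circles stand for the intermediate resistant and diamonds for the fully resistant library, and dotted lines mark 2-fold. Diamonds lie beyond the left dotted line for 16 genes, of which KCNH6 was under 2 CPM in both libraries, and beyond the right one for 5.

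RNA of the 135 genes of the set other than the 2 non-coding ones summed to 549 CPM in sensitive, 435 in intermediate resistant and 384 in fully resistant cells. Potassium channel genes made up 433, 314 and 299 of this, calcium channel genes 87.7, 89.0 and 63.4 and sodium channel genes 27.5, 31.6 and 21.9. The fully resistant library thus had the lowest sum of each ion type, but not of each potassium channel family. In the same order of libraries, inward rectifiers summed to 61.5, 68.6 and 20.9 CPM, lowest in fully resistant cells. Voltage-gated pore subunits (270, 175 and 198), their auxiliary subunits (24.3, 15.6 and 20.3) and tandem-pore genes (50.9, 23.3 and 27.6) were lowest in intermediate cells. Calcium- or sodium-activated ones (26.1, 31.9 and 32.0) were lowest in sensitive cells.

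Among the pore-forming subunits of voltage-gated potassium channels, 13 of 40 were measured. KCNH2 (ENSG00000055118) encodes hERG, which helps set the resting potential and ends the action potential. It had 98.9 CPM in sensitive cells (95% Poisson interval 96.9 to 101), 33.3 in intermediate resistant (32.2 to 34.4) and 9.92 in fully resistant cells (9.33 to 10.5). The level was lower at each of the 2 states, 2.97-fold (2.86 to 3.09) from sensitive to intermediate and 3.36-fold (3.13 to 3.60) from intermediate to full resistance. Over the whole range it was 9.97-fold lower (9.35 to 10.6). All intervals here and below cover counting error only.

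KCNQ5 encodes a subunit of M-type channels, slow potassium channels that damp repetitive firing. It had 4.03, 5.30 and 0.754 CPM and was 5.34-fold lower (4.19 to 6.89) in fully resistant than in sensitive cells. In intermediate cells it stood within 1.32-fold of the sensitive level.

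KCNS3 was higher in both kinds of resistant cells. It encodes a silent subunit that forms no channel alone and alters the delayed rectifiers it joins. The level was 1.04 CPM (0.846 to 1.27) in sensitive, 7.72 (7.19 to 8.28) in intermediate resistant and 7.89 (7.37 to 8.45) in fully resistant cells. Both resistant libraries stood above 7-fold, at 7.42-fold (6.01 to 9.24) and 7.58-fold (6.15 to 9.44), and they differed little from each other, at 1.02-fold (0.927 to 1.13). KCNG1, another silent subunit, had 29.1, 15.6 and 24.2 CPM and passed no 2-fold limit. KCNB2, a delayed rectifier pore, was lowest in intermediate cells, at 0.371 CPM against 2.44 in sensitive and 1.78 in fully resistant cells.

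KCNC1 encodes a fast delayed rectifier that allows rapid firing, and its relative KCNC4 a fast-inactivating A-type channel. KCNC1 had 6.22, 4.16 and 1.54 CPM, 4.05-fold lower (3.40 to 4.85) in fully resistant than in sensitive cells. KCNC4 was 1.84-fold lower, short of the limit. KCNH6, a relative of KCNH2, had 1.75, 2.82 and 0.612 CPM and was 4.61-fold lower (3.51 to 6.13) in fully than in intermediate resistant cells. KCNH4, of the same extended family, had 2.17, 1.89 and 1.24 CPM.

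Of the auxiliary subunits of these channels, 4 of 12 were measured. KCNIP4, a calcium-binding partner of A-type channels, had 13.3, 5.59 and 9.75 CPM and was 2.37-fold lower (2.15 to 2.62) in intermediate than in sensitive cells. KCNAB1, a cytoplasmic beta subunit, had 2.16, 0.293 and 0.622 CPM, lower than in sensitive cells by 7.36-fold and 3.47-fold (2.61 to 4.65). Its relative KCNAB2 had 5.91, 6.70 and 5.32 CPM and KCNIP2 had 193, 123 and 234 UMIs.

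Tandem-pore channels carry the leak current that holds the resting potential. Of 15 genes, 6 were measured, and 4 of these were at least 2-fold lower than in sensitive cells in each resistant library. The share of all measured genes was 8.57% in the fully resistant and 5.60% in the intermediate one. For genes whose highest CPM was from 2 to under 20 it was 10.9% and 7.29%. KCNK7, KCNK10 and KCNK12 reached 2 CPM in sensitive cells only, so the limit admitted them through the library where they were high. Nothing is read from this count. KCNK3 and KCNK9 encode the paired acid-sensitive channels TASK-1 and TASK-3 and lay on opposite sides. KCNK3 (ENSG00000171303) had 35.8 CPM (34.6 to 37.0) in sensitive, 13.3 (12.6 to 14.0) in intermediate resistant and 3.36 (3.02 to 3.73) in fully resistant cells. It was 10.6-fold lower (9.54 to 11.9) in the fully resistant library. KCNK9 (ENSG00000169427) had 1.19 CPM (0.979 to 1.43), 4.14 (3.75 to 4.55) and 16.6 (15.8 to 17.4), a 13.9-fold higher level (11.5 to 17.0). Each gene stepped in 1 direction over the 3 states, KCNK3 by 2.69-fold and 3.96-fold downward and KCNK9 by 3.48-fold (2.82 to 4.33) and then a ratio between 3.60 and 4.46 upward.

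KCNK9 therefore gave 3.21% of the UMIs of the pair in sensitive cells (exact binomial interval 2.66 to 3.85), 23.7% (21.7 to 25.7) in intermediate resistant and 83.1% (81.5 to 84.7) in fully resistant cells. The sum of both genes was 37.0, 17.5 and 19.9 CPM. A 3′ UMI marks a molecule whatever its length, but genes can differ in capture, so these shares compare libraries and not the 2 genes within one.

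KCNK10, which encodes the stretch-activated TREK-2, had 3.51, 0.605 and 0.471 CPM. KCNK12 had 2.96, 1.04 and 0.650 CPM and KCNK7, whose product has no known current of its own, 4.63, 1.19 and 1.54. These 3 genes already stood at least 2.84-fold lower in intermediate cells, and none passed a further 2-fold step. KCNK5, which encodes the alkaline-activated TASK-2, had 2.04, 1.16 and 2.95 CPM and was 2.54-fold higher (2.05 to 3.16) in fully than in intermediate resistant cells.

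**Figure D2:**
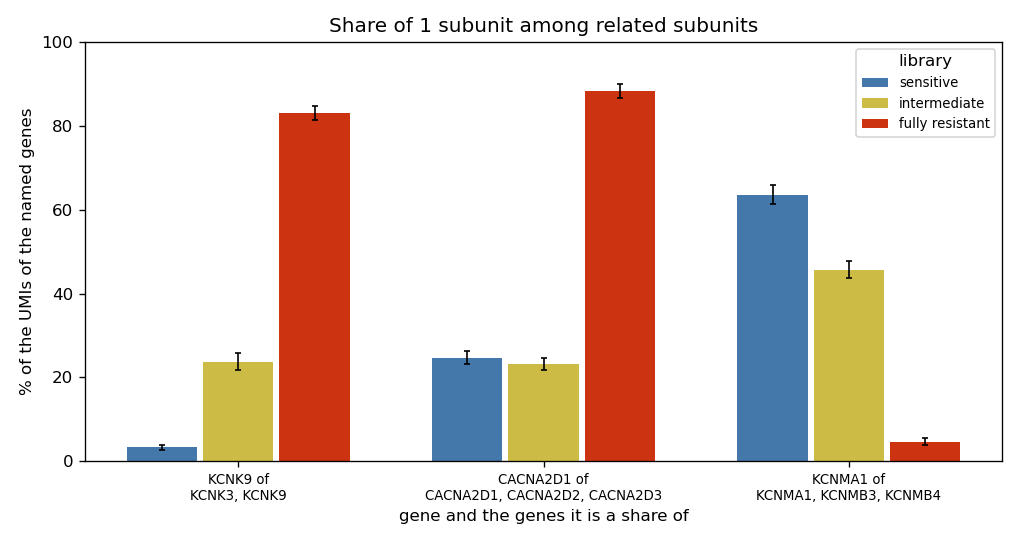
Share of UMIs (y axis, percent) that 1 subunit gave among the related subunits named under the bars, for the 3 libraries. Error bars are exact binomial 95% intervals for counting error. KCNK9 reached 83.1% and CACNA2D1 88.4% in fully resistant cells, while KCNMA1 stood at 4.63%.

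Sequence upstream of the start was read for 3 genes, the pair KCNH2 and KCNK3, which were lower at both steps, and KCNS3, which was higher in both resistant libraries. Capitals mark matches to the E-box CANNTG, the 6-base site of basic helix-loop-helix factors such as the MYC family and proneural factors. Each run is the 250 bases before the first start that RefSeq lists for the gene, on GRCh38.p14, 5′ to 3′ on the strand of the gene. KCNH2 (chr7:150978322-150978571, minus strand) has 5 starts in that table, KCNK3 (chr2:26692472-26692721, plus strand) 1 and KCNS3 (chr2:17877597-17877846, plus strand) 2, and 3′ counts do not tell which start was used. The bases just after the start were found in a GENCODE 29 transcript of the gene for KCNK3 and KCNS3, but not for KCNH2.
KCNH2: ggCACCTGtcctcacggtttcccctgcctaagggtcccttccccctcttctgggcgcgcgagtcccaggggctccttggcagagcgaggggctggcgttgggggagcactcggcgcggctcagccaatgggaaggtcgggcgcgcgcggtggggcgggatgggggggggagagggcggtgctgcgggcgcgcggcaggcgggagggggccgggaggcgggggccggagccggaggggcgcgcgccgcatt
KCNK3: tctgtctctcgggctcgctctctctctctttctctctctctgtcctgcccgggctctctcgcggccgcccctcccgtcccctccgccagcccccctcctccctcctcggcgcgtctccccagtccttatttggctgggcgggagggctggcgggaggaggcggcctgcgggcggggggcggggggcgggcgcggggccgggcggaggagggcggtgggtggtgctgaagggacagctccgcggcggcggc
KCNS3: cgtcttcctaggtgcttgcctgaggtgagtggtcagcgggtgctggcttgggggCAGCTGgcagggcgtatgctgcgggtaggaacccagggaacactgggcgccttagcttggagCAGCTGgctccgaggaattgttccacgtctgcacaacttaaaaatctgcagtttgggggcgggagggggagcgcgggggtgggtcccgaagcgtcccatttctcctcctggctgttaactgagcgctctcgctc
KCNH2 held 1 match and KCNK3 none, and both runs were rich in G and C, at 77.2% and 76.4%. KCNS3 held 2 matches, each of them CAGCTG, in a run with 62.4% G and C. CANNTG reads as itself on the other strand as a pattern, so a search of 1 strand covers both. It was found in the same window of 62.2% of 27305 genes and of 39.4% of the 33 measured channel genes with an entry. Their median G and C content was 58.0% and 71.2%. CAGCTG was found in 13.8% and 12.1%, and CACGTG in 6.49% and 6.06%. CAGATG or CATCTG was found in 12.2% and 3.03%, the latter being 1 of 33 channel genes. A match is a description of the letters in this window.

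Inward rectifiers pass potassium more easily into than out of the cell and hold the membrane near rest. Of 15 genes, 4 were measured. KCNJ12 had 28.7 CPM (27.6 to 29.8) in sensitive, 19.2 (18.4 to 20.1) in intermediate resistant and 1.38 (1.16 to 1.62) in fully resistant cells, 20.8-fold lower (17.6 to 24.8) in the last than in the first. KCNJ12 has near-identical copies in the genome, so its reads may be shared and its level is uncertain. KCNJ8, the pore of ATP-sensitive channels that tie excitability to metabolism, peaked in intermediate cells. It had 27.1, 44.6 and 14.3 CPM, 1.65-fold (1.57 to 1.73) above sensitive in the intermediate library, and 3.13-fold lower (2.95 to 3.32) in the fully resistant one against the intermediate one.

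KCNJ6, a channel opened by G protein beta-gamma subunits, had few UMIs in both resistant libraries. It had 205 UMIs in sensitive cells, 5 in intermediate resistant and 16 in fully resistant cells, or 2.16, 0.0488 and 0.151 CPM. The ratios to sensitive were 44.2-fold (18.6 to 137) and 14.3-fold (8.60 to 25.5) lower. KCNJ14 had 1.04, 1.25 and 2.39 CPM and was 2.30-fold higher (1.82 to 2.93) in fully resistant than in sensitive cells.

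Calcium-activated channels link calcium entry to repolarisation, and their subunits split in the fully resistant library. KCNMA1, the pore of the large-conductance BK channel, had 12.4 CPM (11.7 to 13.2), 10.5 (9.92 to 11.2) and 1.08 (0.894 to 1.30). It was 11.5-fold lower (9.47 to 14.0) in fully resistant than in sensitive cells and only 1.18-fold lower in intermediate ones. Its measured regulatory beta subunits, KCNMB4 and KCNMB3, were higher there, while KCNMB1 and KCNMB2 stayed under 2 CPM in every library. KCNMB4, the neuronal beta subunit, had 4.05, 8.47 and 14.0 CPM, 3.46-fold higher (3.09 to 3.88) in the fully resistant library. KCNMB3 had 3.06, 4.05 and 8.29 CPM, 2.71-fold higher (2.37 to 3.10). KCNMA1 gave 63.6%, 45.7% and 4.63% of the UMIs of these 3 genes. The small-conductance channel gene KCNN1, at 3.26, 4.26 and 4.64 CPM, and the sodium-activated KCNT2, at 2.49, 2.22 and 2.85, stayed within 1.42-fold.

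**Figure D3:**
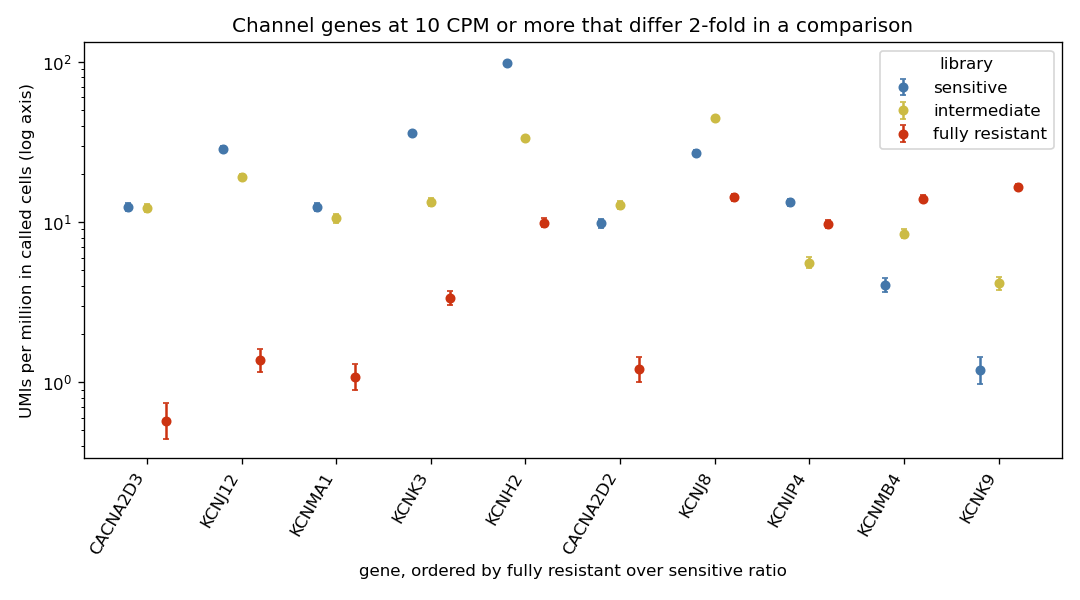
Level of 10 channel genes that reached 10 CPM and differed at least 2-fold in a comparison (y axis, CPM in called cells on a log scale), ordered by the fully resistant over sensitive ratio. Points are single libraries with exact Poisson 95% intervals. CACNA2D3, KCNJ12, KCNMA1 and CACNA2D2 have sensitive and intermediate points within 1.49-fold and a fully resistant point under 2 CPM, while KCNK3 and KCNH2 step down at each state.

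Voltage-gated sodium channels start the action potential, and 5 of their 10 alpha subunits and 1 of 4 beta subunits were measured. SCN1A had 6.91 CPM (6.39 to 7.46) in sensitive, 3.12 (2.79 to 3.49) in intermediate resistant and 1.15 (0.954 to 1.37) in fully resistant cells. It was 6.01-fold lower (4.95 to 7.35) in the last, and each step passed 2-fold. SCN9A, a channel of sympathetic and sensory neurons, peaked in intermediate cells at 7.96 CPM, against 4.15 in sensitive and 2.62 in fully resistant cells, 3.04-fold lower (2.65 to 3.49) between the resistant libraries. SCN3A, which is prominent in embryonic neurons, had 1.73, 3.60 and 3.06 CPM. SCN8A had 2.16, 2.32 and 1.52 CPM. SCN3B, the measured beta subunit, had 7.99, 10.8 and 9.65 CPM and stayed within 1.36-fold.

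Voltage-gated calcium channels join an alpha1 pore to alpha2delta and beta subunits. Of the 2 measured pore genes, neither passed 2-fold against sensitive cells. CACNA1B, the N-type pore that drives transmitter release, had 7.40, 11.1 and 7.71 CPM, and CACNA1D, an L-type pore, 1.60, 2.53 and 0.895. CACNA1D was 2.83-fold lower (2.22 to 3.61) in fully than in intermediate resistant cells. The other 8 alpha1 genes were not measured, among them the L-type CACNA1C, whose highest level of 1.68 CPM lay just under the limit.

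The alpha2delta subunits help carry the channel to the surface. Of 3 measured, 2 were at least 2-fold lower in fully resistant than in sensitive cells. The share was 8.57% of all measured genes and 10.9% of those whose highest CPM was from 2 to under 20. Between intermediate and sensitive cells 0 passed 2-fold. CACNA2D3 (ENSG00000157445) had 12.3 CPM (11.6 to 13.1) in sensitive, 12.2 (11.6 to 12.9) in intermediate resistant and 0.575 (0.440 to 0.738) in fully resistant cells, 21.5-fold lower (16.6 to 28.3) in the last than in the first. CACNA2D2 had 9.87, 12.8 and 1.21 CPM, 8.19-fold lower (6.80 to 9.93). CACNA2D1 lay on the other side, at 7.29, 7.57 and 13.6 CPM, 1.87-fold higher (1.71 to 2.05) but short of 2-fold. CACNA2D1 gave 24.7%, 23.2% and 88.4% of the UMIs of the 3 genes, and their sum was 29.5, 32.6 and 15.4 CPM. Sensitive and intermediate cells were thus alike in this family and the fully resistant cells stood apart.

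The beta subunits, which help the pore fold and leave the endoplasmic reticulum, were level. CACNB3 had 12.2, 12.0 and 12.2 CPM, and the interval of its fully resistant over sensitive ratio was 0.924 to 1.08. CACNB1 had 2.08, 2.21 and 1.88, and CACNB4 had 1.79, 1.77 and 2.07 CPM. The gamma family, whose CACNG4, CACNG7 and CACNG8 products mainly escort AMPA-type glutamate receptors, gave 3 measured genes. CACNG4 had 8.82, 4.41 and 0.980 CPM, lower by 7.34-fold to 11.1-fold (95% interval) in fully resistant than in sensitive cells, while its step to the intermediate library, with an interval of 1.78 to 2.25, lay just short of the limit. CACNG7, at 9.20, 8.13 and 7.85, and CACNG8, at 12.5, 11.7 and 12.5 CPM, stayed within 1.17-fold.

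The non-coding KCNQ1OT1, which silences neighbouring genes in an imprinted domain, had 178, 332 and 189 CPM. Its level was 1.87-fold higher (1.83 to 1.90) in intermediate than in sensitive cells and 1.06-fold in fully resistant cells. The 20 measured genes nearest to it had a median log2 ratio of 1.00 in intermediate over sensitive and 0.98 in fully resistant over sensitive, so that its neighbours were higher in both libraries.

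The remaining 87 genes of the set were not measured. Of these, 18 had 0 UMIs in all 3 libraries, which at 3 UMIs allows up to 0.0315 CPM, and 45 never reached 0.1 CPM. Only 11 reached 1 CPM. The closest to the limit from below were CACNA1C, KCNH3, KCNJ11 and KCNH7, at 1.53 to 1.68 CPM, and from above CACNB4, KCNJ6, KCNAB1 and KCNH4, at 2.07 to 2.17.

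Shares of cells followed the levels. Random thinning brought each cell down to 5000 UMIs, and no called cell was below that. KCNH2 was then seen in 36.9% of sensitive cells (exact binomial interval 35.6 to 38.2), 15.0% of intermediate and 5.07% of fully resistant cells, or 73.8%, 39.4% and 14.7% without thinning. KCNK3 was seen in 15.3%, 6.30% and 1.66%, and KCNK9 in 0.462%, 1.62% and 7.88%. Free RNA was read from barcodes with 10 to 100 UMIs, whose mean totals were 30.7, 41.9 and 43.3 UMIs. A cell with that mean amount would owe to it an estimated 0.293%, 0.483% and 0.515% of the channel gene with the highest such share. These are estimates from a mean and not upper limits. Some genes had few UMIs in these barcodes, such as KCNK9 with 1 in the sensitive library.

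Within a library the variance of most channel genes between cells was close to that of counting alone. After thinning, the variance of UMIs per cell divided by the mean is 1 for pure counting. For 49 measured genes without KCNQ1OT1 its median was 1.01 in sensitive and 1.01 in fully resistant cells, with highest values of 1.11 and 1.23. In intermediate cells 48 genes could be read, with a median of 1.00 and a highest value of 1.13. KCNQ1OT1 had values of 1.42, 2.07 and 1.41, and 1 intermediate cell held 21 of its UMIs. It was also the gene of the set with the highest level in each library, and where cells differ this value rises with the level. Whether KCNQ1OT1 was less evenly spread than the other genes was therefore not tested. At the low counts per cell of the other genes a small group of high cells, or a broad difference between cells, may not be detectable. KCNS3 in intermediate cells had a value of 1.02, though its level differed 3.84-fold between cells ranked by G2 and M phase RNA (below). A value near 1 therefore does not show an even spread.

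Cells were also ranked within each library by the share of their UMIs in 20 G2 and M phase genes. The top 20% of cells were set against the bottom 20%, with 1083, 1257 and 1266 cells in each. This is a cut through a range, and 231 to 359 cells lay within 10% of the upper limit and 215 to 276 of the lower one. Channel genes with at least 50 UMIs in both sets together were counted at 2-fold beside all measured genes with as many UMIs, without the 20 listed genes. In sensitive cells 0 of 48 were higher in the top cells (against 4.54% of all such genes) and 2 were lower (against 0.900%). In intermediate resistant cells 2 of 42 were higher (against 13.4%) and 1 lower (against 1.96%). In fully resistant cells 2 of 34 were higher (against 6.80%) and 2 lower (against 2.18%). CACNG8 was lower in the cells with most G2 and M phase RNA in each library, by 2.63-fold (2.17 to 3.19), 1.84-fold (1.52 to 2.24) and 2.61-fold (2.16 to 3.16). SCN1A was higher there, by 1.45-fold (1.14 to 1.86), 2.80-fold (1.92 to 4.16) and 2.63-fold (1.35 to 5.51). KCNS3 was 3.84-fold higher (2.83 to 5.30) there in intermediate cells, with 10.4 against 2.72 CPM, while its intervals included no difference in the sensitive (0.381 to 1.62) and fully resistant (0.671 to 1.10) libraries. KCNH2 had 98.3 and 89.5 CPM in the low and high cells of the sensitive library and 10.3 and 7.26 in those of the fully resistant library, so that the difference between libraries was present in both sets. Cells of the high set had more UMIs, with medians of 17204 to 18338 against 13647 to 14806.

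**Figure D4:**
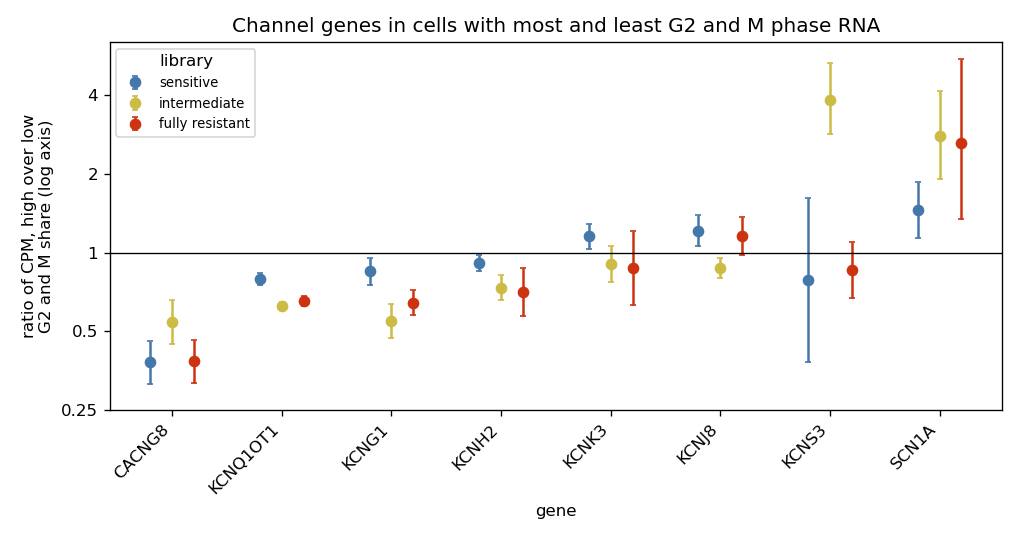
Ratio of CPM in the 20% of cells with the highest share of G2 and M phase RNA over the 20% with the lowest (y axis, log scale) for 8 channel genes chosen after their values were seen. Points are single libraries with exact 95% counting intervals. CACNG8 lies below 1 and SCN1A above 1 in all 3 libraries, and KCNS3 is high in the intermediate library at 3.84.

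Neighbouring genes were read for each channel gene as the median log2 ratio of up to 10 measured genes on either side in GENCODE 29 order (GRCh38). Of the 22 genes at least 2-fold different between fully resistant and sensitive cells, 18 had neighbours with a median within 0.4 of 0. The other 4 had neighbours shifted the same way, and 3 of them follow. CACNA2D2 and CACNA2D3 on chromosome 3 had own log2 ratios of -3.03 and -4.42 beside neighbour medians of -1.10 and -0.73, and CACNA1D, nearby, had -0.84 beside -0.73. KCNMB4 on chromosome 12 had 1.79 beside 0.73. KCNG1 on chromosome 20 had -0.26 beside 0.49. For KCNH2 on chromosome 7 and KCNK3 on chromosome 2 the neighbour medians were 0.09 and -0.07, beside own ratios of -3.32 and -3.41. For KCNK9 on chromosome 8 it was -0.39, beside 3.80. The part of shared chromosome shifts in the channel levels was not tested.

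**Figure D5:**
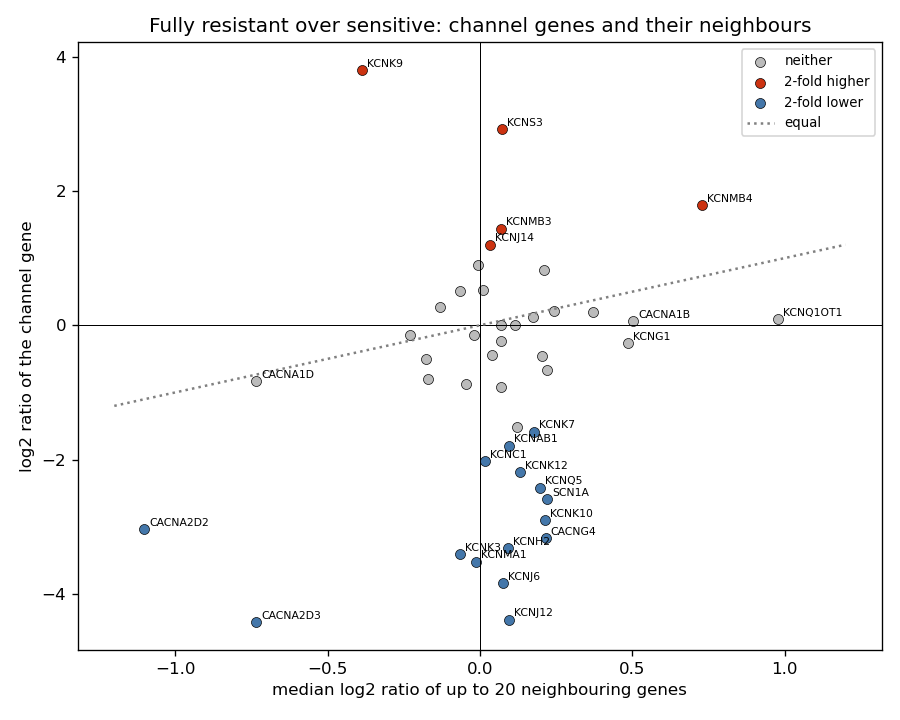
Log2 ratio of measured channel genes, fully resistant over sensitive (y axis), against the median of its measured neighbours (x axis). Colours show genes at least 2-fold higher or lower with 2 CPM in the higher library, and the dotted line marks equal values. Of the coloured genes drawn, CACNA2D2, CACNA2D3 and KCNMB4 lie where neighbours are shifted the same way, and 17 others lie within 0.4 of 0 on the x axis.

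Other genes that serve the same functions were counted from 4 lists. The shares of all measured genes to set beside these counts are 7.91% higher and 8.57% lower in fully resistant over sensitive, 3.30% and 5.60% in intermediate over sensitive, and 6.52% and 4.88% in fully over intermediate resistant. In lists of 11 to 29 genes, 1 gene is a share close to these, and nothing is read from such a count. Of 29 measured channel partners and anchors, 4 were higher and 8 lower in fully resistant than in sensitive cells, with a median log2 ratio of -0.19. STAC3, an adaptor of L-type channels, had 0.294 and 4.05 CPM, and FGF14, which binds sodium channels, 4.68 and 0.716. In intermediate over sensitive, 4 were higher and 1 lower (median -0.01). ANK3, the anchor that gathers sodium and KCNQ channels at the axon initial segment, had 3.09 CPM in sensitive, 23.4 in intermediate resistant and 17.4 in fully resistant cells. FGF13, another sodium channel partner, had 3.87, 28.0 and 5.11 CPM. Between the resistant libraries 3 were higher and 8 lower in the fully resistant one (median -0.09), and LRRC55, an auxiliary subunit of the BK channel, had 0.195 and 2.64 CPM.

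Of 16 other measured cation channels, 0 were higher (against 7.91%) and 5 lower (against 8.57%) in fully resistant over sensitive. In intermediate over sensitive 1 was higher (against 3.30%) and 3 lower (against 5.60%). In fully over intermediate resistant 0 were higher (against 6.52%) and 1 lower (against 4.88%). The percentages are the shares of all measured genes, and the medians were -0.47, -0.17 and -0.47. The mechanosensitive PIEZO2 had 424 UMIs in sensitive, 81 in intermediate resistant and 0 in fully resistant cells. With the 0 set to a floor of 3 UMIs, the last was 158-fold lower than the first. The acid-sensing ASIC2 had 2.49, 0.459 and 0.0848 CPM.

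Calcium release and store-operated entry gave 11 measured genes. In fully resistant over sensitive 2 were higher (against 7.91% of all measured genes) and 1 lower (against 8.57%), with a median of 0.34. In intermediate over sensitive 1 was higher (against 3.30%) and 0 lower (against 5.60%), with a median of -0.12. In fully over intermediate resistant 3 were higher (against 6.52%) and 1 lower (against 4.88%), with a median of 0.25. The release channels lay on opposite sides. ITPR1, an inositol trisphosphate receptor, had 13.1, 8.13 and 1.09 CPM, and the ryanodine receptor RYR2 had 0.231, 1.09 and 4.03. STIM1, the store sensor, had 1.28, 3.14 and 2.39 CPM.

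Ion pumps and exchangers gave 12 measured genes. Of these, 1 was higher (against 7.91% of all measured genes) and 2 lower (against 8.57%) in fully resistant over sensitive. For intermediate over sensitive, 1 was higher (against 3.30%) and 0 lower (against 5.60%). For fully over intermediate resistant, 1 was higher (against 6.52%) and 3 lower (against 4.88%). The median log2 ratios were 0.28, 0.10 and -0.02. The sodium-calcium exchanger gene SLC8A3 had 1130 UMIs in sensitive, 643 in intermediate resistant and 0 in fully resistant cells. With the 0 set to the same floor, the last was 420-fold lower than the first. Its relative SLC8A1 had 47.4, 103 and 80.0 CPM.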

How the data were processed

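The submitters' processing notes name bcl2fastq, Cell Ranger and the build hg19, and versions are not given in the sources used here. The deposited matrices hold raw UMI counts per gene and barcode for 737280 barcodes, with no normalization. Groups follow the response named in the labels, and 0 per-sample columns were left unused.

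A barcode was called a cell at 5000 UMIs, 500 genes and at most 20% mitochondrially encoded UMIs. That last limit removed 0, 4 and 2 barcodes, and called cells held 94.8%, 94.4% and 94.0% of library UMIs. Doublets were kept, and no caller was run. UMIs were summed over cells and divided by the library total. Ratios carry exact conditional Poisson 95% intervals, and a count of 0 was set to 3 UMIs for the ratio. The interval script was tested on simulated data. No significance test was possible with 1 library per group. Genes given in full reached 10 CPM with a 2-fold ratio, or had most UMIs in their family (2 per family), and the rest were given briefly. A few genes enter the counts but are not reported here by name. From the 4 lists, the 2 genes with the largest absolute ratio per comparison were named. The members, lists and limits were chosen with earlier results of these data known. The shares within related subunits, the range from 2 to 20 CPM and the share of all genes beside the G2 and M phase counts were chosen after seeing the data.

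The RefSeq promoter table had an entry for 33 of the 50 measured genes and none for 17. Python 3.11.15, scipy 1.17.1 and edgeR 4.0.16 (TMM factors only) were used.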

Additional observations from a re-analysis of the deposited data

How the results depend on the processing

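Each count was recomputed under 14 planned settings, and without KCNQ1OT1, a setting added after seeing the data that changed none of them. The 4 changes of cell calling and doublets, the 3 other scalings, equal weight for cells and thinning left every count within 1.5 times its value. Of 55 calls over the 3 comparisons, 51 stayed past 2-fold under each of these 9 settings, 0 reversed, and 4 fell short in at least 1, among them KCNMB3 (fully over intermediate), KCNMB4 and SCN3A (intermediate over sensitive). Library totals that leave out mitochondrial and ribosomal protein genes made 37.5% of the genes called in intermediate over sensitive higher, against 26.7%. A CPM of at least 1 left 61 channel genes measured. It gave 7 higher in intermediate over sensitive (against 4.29% of all genes so measured) and 7 in fully over intermediate (against 7.51%). In fully over sensitive it gave 9 higher (against 9.03%) and 18 lower (against 9.41%). A CPM of at least 5 left 28 channel genes. It gave 9 lower in fully over sensitive (against 7.23%) and 9 lower in fully over intermediate (against 3.79%). In intermediate over sensitive it gave 2 higher (against 2.29%) and 4 lower (against 4.61%). A CPM of at least 10 left 19 channel genes, with 3 higher (against 5.87%) and 5 lower (against 6.33%) in fully over sensitive. In intermediate over sensitive 0 were higher (against 1.83%) and 3 lower (against 3.86%). In fully over intermediate 1 was higher (against 4.82%) and 7 lower (against 3.16%). A ratio of 1.5, with 50 channel genes measured, gave 10 higher in intermediate over sensitive (against 7.03%) and 11 higher in fully over intermediate (against 14.8%). In fully over sensitive it gave 8 of 50 higher (against 16.1%), so that the higher share was near that of all genes, and 22 lower (against 16.3%). A ratio of 3 gave 3 higher (against 4.20%) and 15 lower (against 4.30%) in fully over sensitive. In fully over intermediate it gave 1 higher (against 3.42%) and 12 lower (against 2.74%). In intermediate over sensitive it gave 2 higher (against 1.71%) and 5 lower (against 2.22%). Counts under these limits that are not given here stayed within 1.5 times their main value. These limits admit fewer or more genes by construction. No paired analysis was possible because each group has 1 library. Genes near 2 CPM rest on about 200 UMIs per library and have wider counting intervals than abundant genes, and no interval covers variation between cultures.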

Other observations

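Antisense rows with a hyphen in their name were outside the set. Among them KCNQ1-AS1, which lies in the same locus as KCNQ1OT1, had 20 UMIs in sensitive, 172 in intermediate resistant and 7 in fully resistant cells, the intermediate library being the highest for KCNQ1OT1 too. CACNA2D3-AS1 had 27, 21 and 1 UMIs, the order of its partner CACNA2D3, and whether all of them came from its own strand was not tested.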
